A study of Mus musculus with 74 samples.

Results

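Forestomach and small intestine are 2 organs of the gut tube whose inner linings were compared here at embryonic day 14 (E14) of the mouse. The comparison rests on 4 RNA-seq libraries, 2 of forestomach and 2 of small intestine, found by their labels among the 74 samples of the series, of which 31 are RNA libraries. The embryos of these libraries were wild type, of the CD1 strain and untreated. Tissue was digested with trypsin and Epcam+ epithelial cells were collected by flow sorting, and the amplified RNA was read on a NextSeq 500. The cell type label of both E14 small intestine libraries is midgut, and the number of embryos behind a library is not given in the sources used here. Replicates are therefore separate libraries of 1 group, and p-values measure the spread between libraries, which may be technical. The forestomach libraries held 18075525 and 21615921 counts in named genes, and those of the small intestine 62463167 and 20458113. Wild-type libraries of the same organs at E12 and E16, and of hindstomach at all 3 ages, were used beside them, 2 libraries in each group. All p-values come from 1 model over 27 embryonic libraries, which also holds 2 wild-type small intestine libraries of E18 and 7 of Cdx2-/- small intestine (the gene deleted at E10, E13 or E15, sampled at E16 or E18); these enter the scaling, the filter on low counts and the estimate of the spread, and are not compared here.

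The forestomach is the front chamber of the rodent stomach. It forms from foregut endoderm, which keeps the transcription factor SOX2, and its lining becomes a stratified squamous epithelium with a basal layer that resembles that of oesophagus and skin. The small intestine forms from midgut endoderm, where CDX2 is switched on, and its lining becomes a simple columnar epithelium that later raises villi and takes up nutrients through a brush border. E14 lies at about the onset of villus formation and before the forestomach lining has cornified. In bulk RNA, fewer cells of a kind and less RNA per cell cannot be told apart, and this holds for each level below.

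Of 17239 genes tested, 2059 differed between the organs at E14, 803 of them higher and 1256 lower in forestomach. A gene was called where the edgeR quasi-likelihood test gave a Benjamini-Hochberg adjusted p under 0.05 over all genes tested and the log2 fold change was at least 1 in size, so 11.9% of genes were called, 4.66% higher and 7.29% lower. These shares are the background for every list below. The median log2 fold change was 2.46 over the higher calls and -2.58 over the lower calls, against -0.09 over all genes. With only the 4 libraries compared in the model 1232 genes were called higher and 1520 lower, and with only the 6 E14 libraries 1285 and 1649. With no minimum on the fold change, 3142 genes passed, 1141 higher and 2001 lower. Large differences were common: 225 higher and 343 lower calls had a log2 fold change of at least 4 in size. The organ with the lower level had 0 counts in both of its libraries for 50 of the higher and 129 of the lower calls. The small intestine replicate 1 was the deepest library, and without it 489 genes were called higher and 908 lower.

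**Figure D1:**
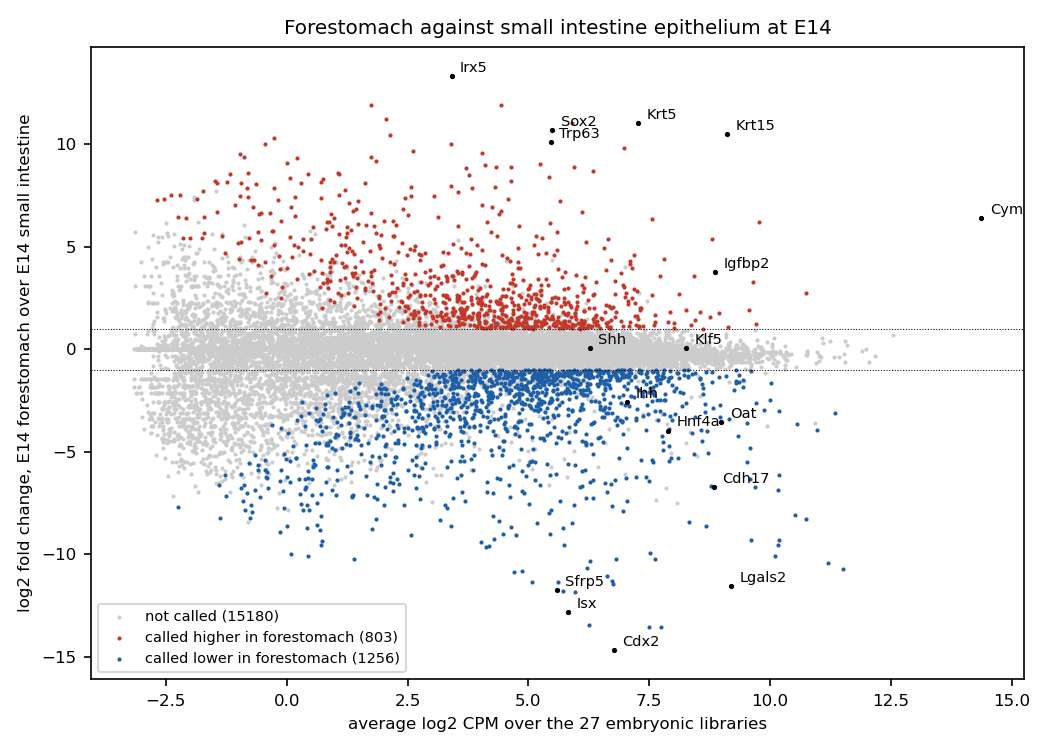
Each point is 1 of the 17239 genes tested, placed by its average log2 CPM over 27 embryonic libraries (x axis) and its log2 fold change of E14 forestomach over E14 small intestine (y axis). The 803 genes called higher in forestomach are red, the 1256 called lower are blue, dotted lines mark a log2 fold change of 1 in size, and named genes are black points; Sox2, Trp63, Krt5 and Krt15 lie near the top and Cdx2, Isx and Sfrp5 near the bottom, while Shh and Klf5 lie at the middle.

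Levels are given as CPM, counts scaled to the TMM-corrected library size (CPM is not corrected for gene length), in replicate 1 and then replicate 2. General epithelial genes were present in both organs: of 18, 1 was called higher and 3 lower in forestomach. They took 0.652% and 0.664% of counts in forestomach and 0.763% and 0.733% in small intestine. Epcam, the sorted surface protein, had 806 and 825 CPM in forestomach and 1429 and 1208 CPM in small intestine. Cdh1, which encodes E-cadherin, had 699 and 743 against 527 and 615 CPM, and Krt8, a keratin of simple epithelia, had 987 and 1023 against 779 and 761 CPM. None of these 3 was called. The 61 markers of mesenchyme, blood, endothelium, nerve and mesothelium took 0.0334% and 0.0304% of counts in forestomach and 0.0720% and 0.0793% in small intestine. Of the 21 mesenchyme and muscle markers, 2 were called higher and 8 lower in forestomach, and the list took 0.0206% and 0.0192% of counts there against 0.0452% and 0.0522%. With only the 4 libraries compared in the model, 2 were called higher and 14 lower. At most 2 of the 21 were at 0 counts in any of these libraries. Col3a1, a collagen of connective tissue, had 32.4 and 25.6 against 96.03 and 135 CPM, and Vim, which encodes vimentin, had 22.7 and 22.8 against 84.8 and 72.3 CPM. The call of Col3a1 was lost without any 1 of the 4 libraries (edgeR adjusted p from 0.0701 to 0.196). All 7 called of the 13 blood and immune markers tested were lower in forestomach, and of the 17 in the list 5 were at 0 counts in each forestomach library and 4 in each of small intestine. Ptprc, which encodes the leukocyte antigen CD45, had 0.0428 and 0.361 against 3.74 and 3.19 CPM, and Csf1r, the macrophage colony-stimulating factor receptor, had 5.82 and 3.11 against 25.4 and 32.3 CPM. The call of Csf1r was lost without any 1 of the 4 libraries (edgeR adjusted p from 0.0636 to 0.193) and that of Ptprc without replicate 1 of forestomach (0.135) or of small intestine (0.0565). The markers of these other cell types thus took a larger share in small intestine, and their part in the genes called lower was not tested.

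Most transcription factors of the intestine were lower in forestomach. Of 20 on the list, 15 were called lower in forestomach and 1 higher, with a median log2 fold change of -2.42. Cdx2, the homeobox factor that gives midgut its identity, had 0 counts in both forestomach libraries and 123 and 152 CPM in small intestine, at least 1160.5-fold lower in forestomach (edgeR adjusted p = 7.75e-11). That bound is taken against a floor of 3 counts per library, as are the other "at least" folds here. The plotted log2 fold changes of genes with 0 counts in 1 organ come from the fit and are not bounds. Isx, an intestine-specific homeobox factor that curbs vitamin A uptake, had 0.0428 and 0 CPM in forestomach and 184 and 177 CPM in small intestine. The ratio was 9277, with an exact 95% counting interval from 1665 to 366428 (edgeR adjusted p = 6.72e-07). Both factors were thus at or near 0 counts in forestomach while small intestine held them above 100 CPM. Cdx1, the close relative of Cdx2, was low in both organs, with 1.58 and 2.64 against 12.1 and 10.8 CPM. Its log2 fold change was -2.43 ± 0.60 SE (adjusted p = 0.00764 by edgeR), and the call was lost without forestomach replicate 1 (log2 fold change -2.12, edgeR adjusted p = 0.102).

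Of the factors shared by several endodermal organs, the HNF4 and GATA genes were lower in forestomach and kept a measurable level there. Hnf4a, a nuclear receptor that drives enterocyte and liver genes, had 13.5 and 17.1 against 219 and 262 CPM (log2 fold change -3.97 ± 0.39 SE, adjusted p = 3.27e-07 by edgeR). Its paralog Hnf4g had 5.48 and 7.59 against 68.03 and 64.01 CPM. The zinc finger factors Gata4, Gata5 and Gata6, which pattern the gut along its length, had log2 fold changes of -2.21 (SE 0.22), -2.16 (SE 0.28) and -2.41 (SE 0.20). Gata4 stood at 55.7 and 58.1 CPM in forestomach and 251 and 277 CPM in small intestine, and was higher again in hindstomach at 358 and 338 CPM. Among nuclear receptors, the bile acid receptor Nr1h4 had 0 counts in both forestomach libraries against 13.8 and 13.6 CPM, at least 116-fold lower. The xenobiotic receptor Nr1i2 had 0 and 0.361 against 4.11 and 2.603 CPM, and was not called with only the 12 forestomach and small intestine libraries in the model (adjusted p = 0.138 by edgeR).

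For Prdm1 and Osr2 the log2 fold changes were larger in size than those of Hnf4a and the 3 GATA genes. Prdm1 encodes BLIMP1, a repressor that holds back adult genes in the fetal intestine. It had 0.3 and 0.615 CPM in forestomach and 163 and 173 CPM in small intestine (log2 fold change -8.48 ± 0.33 SE, adjusted p = 2.47e-12 by edgeR). Osr2, a zinc finger factor, had 1.45 and 1.01 against 65.8 and 58.8 CPM (log2 fold change -5.66 ± 0.69 SE), and hindstomach lay below both at 0.106 and 0.301 CPM. The FOXA genes, pioneer factors of all endoderm, differed in direction. Foxa2 was the only member of the list called higher in forestomach, with 94.1 and 91.3 against 22.1 and 19.3 CPM (log2 fold change 2.16 ± 0.32 SE, adjusted p = 5e-05 by edgeR). Foxa3 was lower, with 10.2 and 11.2 against 43.6 and 46.8 CPM, and Foxa1 had 311 and 345 against 252 and 276 CPM and was not called.

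Foregut factors ran the other way. Of 20 on that list, 12 were called higher and 2 lower in forestomach, with a median log2 fold change of 2.54. Sox2, the SRY-box factor of foregut endoderm, had 189.8 and 153 CPM in forestomach and 0.122 and 0.0394 CPM in small intestine (log2 fold change 10.68 ± 0.70 SE, adjusted p = 7.65e-09 by edgeR). Hindstomach lay between them, nearer to forestomach, at 92.3 and 68.2 CPM. Its relative Sox21 had 140.4 and 159 against 3.14 and 2.56 CPM, and hindstomach, at 123 and 141 CPM, was about level with forestomach. Trp63, the p53 family factor of basal cells in stratified epithelia, had 455 and 458 CPM in forestomach and 0.381 and 0.473 CPM in small intestine (log2 fold change 10.1 ± 0.77 SE, adjusted p = 4.74e-08 by edgeR). Trp63 was also low in hindstomach, at 7.55 and 7.93 CPM. Sox2 and Sox21 were therefore found in both stomach regions, and a high level of Trp63 in the forestomach libraries alone among the 3 organs sampled at E14.

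Further foregut factors differed by less or stood at lower levels. Pitx1, a paired-like homeobox factor best known from the hindlimb, had 620.3 and 476 against 181 and 115 CPM. Grhl3, a grainyhead factor of barrier epithelia, had 176 and 194 against 31.8 and 32.5 CPM, and Klf4, a Krüppel-like factor of differentiating epithelia, 82.9 and 88.5 against 16.2 and 12.9 CPM. Tfap2c, an AP-2 factor of surface epithelia, had 34.3 and 34.8 against 0.163 and 0.237 CPM, and Gata3, a GATA gene of stratified epithelia, 13.1 and 14.3 against 0.476 and 0.237 CPM. All 5 were called higher in forestomach. Pax9, a paired-box factor of the foregut, had 10.2 and 10.5 against 0.0136 and 0.0394 CPM, a ratio of 512 with a counting interval from 141 to 4241. Its call was lost without small intestine replicate 1 (log2 fold change 7.84, edgeR adjusted p = 0.0854). Of the genes called lower, Nkx6-3, a homeobox factor of the distal stomach, had 0 counts in forestomach, 5.05 and 3.08 CPM in small intestine and 54.5 and 55.2 CPM in hindstomach. Klf5, a factor of many epithelia, had 319 and 312 against 326 and 288 CPM and was not called.

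**Figure D2:**
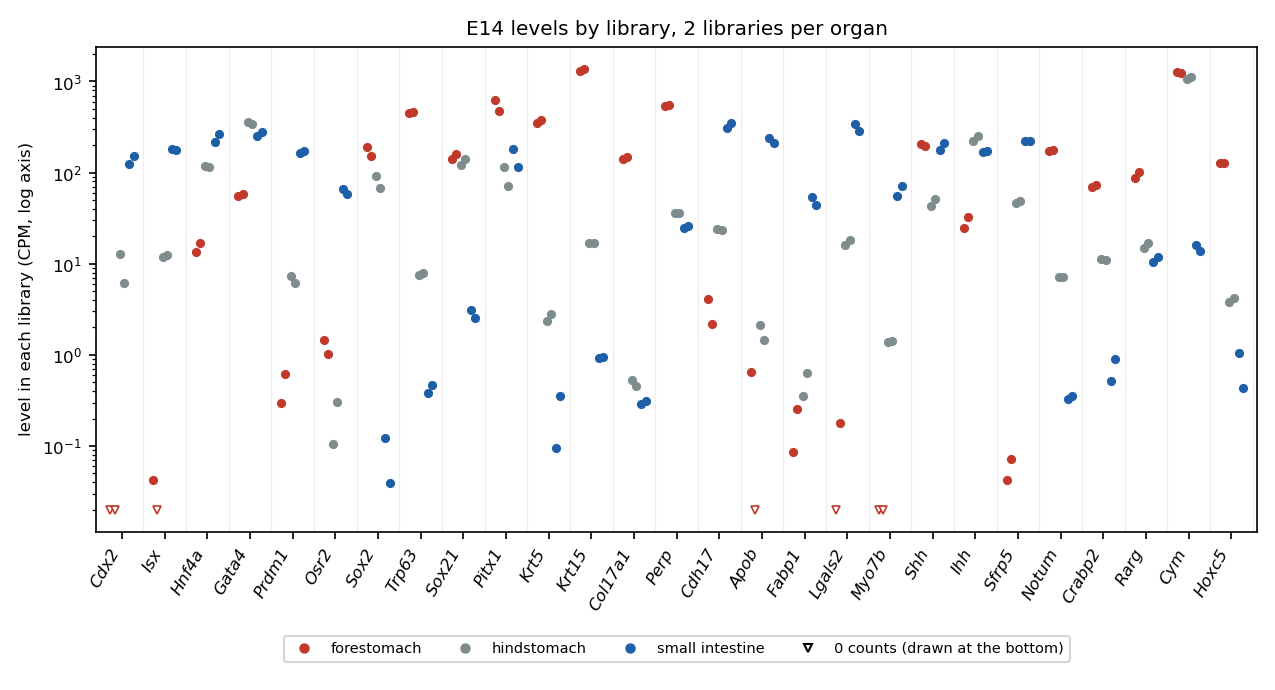
Each point is the level of 1 gene in 1 E14 library, in CPM on a log axis, with 2 libraries each of forestomach (red), hindstomach (grey) and small intestine (blue), and open triangles at the bottom for 0 counts. The 2 libraries of an organ lie close together for most genes, Cdx2 and Myo7b have 0 counts in both forestomach libraries, and Shh is at about the same level in forestomach and small intestine.

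Basal and stratified epithelial genes had the largest share of higher calls among the lists. Of 38 tested, 28 were called higher and 0 lower in forestomach, and the median log2 fold change was 4.18, or 2.91 with members at 0 counts in 1 organ set to their bound. Krt5, the basal keratin, had 352 and 379.7 CPM in forestomach and 0.0953 and 0.355 CPM in small intestine (log2 fold change 11.04 ± 1.16 SE, adjusted p = 1.27e-06 by edgeR). Krt15, a second basal keratin, had 1302 and 1369 against 0.925 and 0.947 CPM (log2 fold change 10.48 ± 0.64 SE, adjusted p = 6.23e-10 by edgeR). Hindstomach stood at 16.7 and 16.9 CPM for Krt15 and 2.36 and 2.78 CPM for Krt5, nearer to small intestine than to forestomach. Col17a1, a collagen of the hemidesmosomes that tie basal cells to their matrix, had 141 and 149 against 0.286 and 0.316 CPM. Itgb4, the integrin of the same structure, had 86.8 and 89.7 against 17.5 and 22.2 CPM. Pkp1, a desmosomal plaque protein, had 51.2 and 37.3 against 0.136 and 0.0789 CPM. Perp and Sfn, targets of the p53 family in stratified epithelia, had 534 and 551 against 24.8 and 26.03 CPM and 340.4 and 339 against 23.1 and 20.9 CPM. Anxa8, an annexin, and Serpinb5, a serpin, had 134 and 135 against 0.0408 and 0 CPM and 67.3 and 58.2 against 0.163 and 0.0394 CPM.

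Other keratins of stratified epithelia were called higher in forestomach too. Krt17 had 29.1 and 25.1 against 0.0953 and 0.197 CPM and Krt4, a keratin of suprabasal oesophageal cells, 5.52 and 8.31 against 0.0816 and 0.0789 CPM. Krt13, the partner of Krt4, Krt6a and Krt14, the basal partner of Krt5, had 0 counts in both small intestine libraries. Forestomach held Krt13 at 3.81 and 5.39 CPM, Krt6a at 3.77 and 3.98 CPM and Krt14 at 2.91 and 2.49 CPM. These were at least 57.8-fold, 48.6-fold and 33.95-fold higher than in small intestine. Krt14 was not called without small intestine replicate 1 (edgeR adjusted p = 0.0887). Keratins 6a, 14 and 17 have close copies among which reads can be split, so their single levels are uncertain. Over the whole keratin family, 11 of 30 genes tested were called higher and 1 lower. Lor, which encodes the cornified envelope protein loricrin, had 0.342 and 0.506 against 0.422 and 0.394 CPM and was not called. At E16 the same gene had 36.1 and 39.95 CPM in forestomach. The E14 levels of Krt4, Krt13 and Krt14 in forestomach were low beside their own E16 levels, which are given with the later ages.

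**Figure D3:**
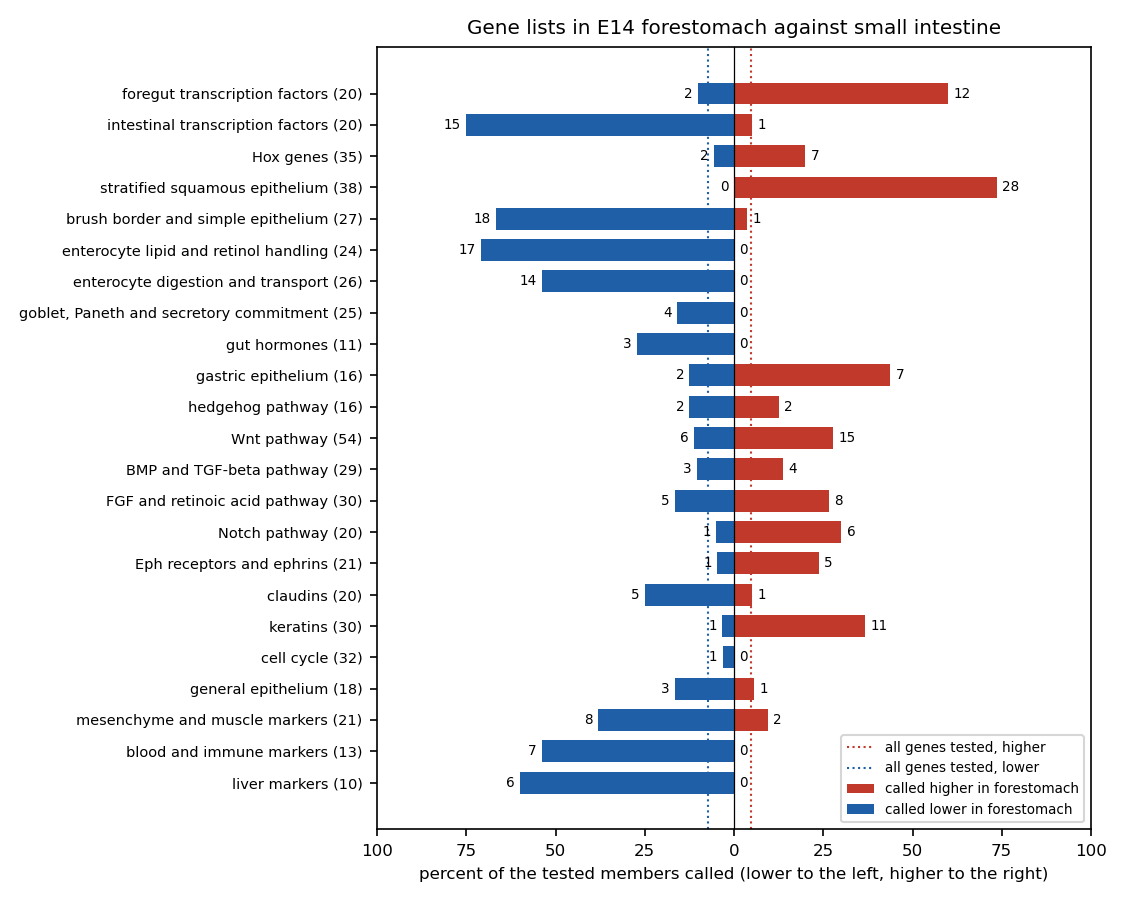
Bars give, for each gene list, the percent of its tested members (number in brackets) called higher (red, to the right) or lower (blue, to the left) in E14 forestomach, with the count at the end of the bar and dotted lines for the same percent over all genes tested, 4.66 higher and 7.29 lower. The stratified squamous list reaches 28 of 38 on the right, and the list of intestinal transcription factors, 15 of 20, reaches furthest on the left, followed by lipid handling, brush border, liver markers, digestion and blood markers.

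Most brush border genes were lower in forestomach. Of 27 genes of brush border and simple epithelium, 18 were called lower and 1 higher, with a median log2 fold change of -2.74. Myo7b, the myosin at the tips of microvilli, had 0 counts in both forestomach libraries and 56.02 and 70.8 CPM in small intestine, at least 536-fold lower. Its partner in the tip complex, Anks4b, had 0 counts against 16.5 and 10.8 CPM, and Cdhr5, a protocadherin of the links between microvilli, 0 and 0.181 against 39.3 and 42.2 CPM. Eps8l3, a relative of the actin regulator EPS8, had 0 counts against 14.6 and 14.8 CPM, and Clrn3, a small membrane protein, 0 counts against 60.3 and 56.4 CPM. Cdh17, the liver-intestine cadherin, had 4.11 and 2.17 CPM in forestomach and 309 and 353 CPM in small intestine (log2 fold change -6.73 ± 1.04 SE, adjusted p = 8.74e-05 by edgeR). Hindstomach held Cdh17 at 23.9 and 23.2 CPM.

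Of 24 tested genes for the handling of fat and retinol, 17 were called lower and 0 higher (median log2 fold change -3.15, or -2.81 with members at 0 counts set to their bound). Apob, the scaffold protein of chylomicrons, had 0.642 and 0 CPM in forestomach and 238 and 211 CPM in small intestine (log2 fold change -9.53 ± 0.54 SE, adjusted p = 2.33e-10 by edgeR). The fatty acid binding proteins of enterocytes Fabp1 and Fabp2 had 0.0856 and 0.253 against 53.5 and 43.7 CPM and 0.0428 and 0.253 against 55.8 and 46.4 CPM. A1cf, the cofactor that edits Apob mRNA, had 0 and 0.289 against 9.703 and 7.18 CPM. Among digestion and transport genes, 14 of 26 were called lower and 0 higher (median -3.40, or -2.56 at the bound). Amn and Cubn, which form the receptor for vitamin B12 bound to intrinsic factor, had 0.0856 and 0.181 against 35.4 and 29.3 CPM and 0.0856 and 0.217 against 24.3 and 25.3 CPM. Mep1a, a brush border protease, had 0 and 0.181 against 11.6 and 13.1 CPM. The amino acid carrier Slc7a9 had 0 counts against 11.1 and 10.7 CPM and the alkaline phosphatase Alpi 0 counts against 7.63 and 6.35 CPM. None of the enzymes and carriers named here, picked among the called members with the largest differences, reached 1 CPM in a forestomach library. The 12 members of this list that were not called are not shown.

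Promoter sequences of genes from both sides are shown because they carry, or share, the letters bound by factors that differed between the organs. RefSeq windows (GRCm38.p6, 250 bases before and 50 after the start) were found for 1459 of the 2059 called genes. The letters CAAAGTCCA, which HNF4 proteins bind, were in 14 of 1168 windows of genes called lower (1.20%), 3 of 761 of genes called higher (0.394%) and 0.468% of windows of genes not called, on either strand. The letters TTTATG, which CDX proteins bind, were in 8.48% of windows of lower genes, 7.88% of higher genes and 7.26% of genes not called. Over all 32851 windows the shares were 0.475% for CAAAGTCCA and 11.9% for TTTATG. SOX letters, ACAATG, were in 7.88% of higher and 7.11% of lower windows, 8.17% of windows of genes not called and 12.6% of all. Paired p53 family letters, CATG on both sides of any 6 bases, were in 0.263% of higher and 0.257% of lower windows, 0.341% of windows of genes not called and 0.712% of all. A match is a description of the sequence and not a binding site, and these counts carry no test. Each line gives the 250 bases before the start of 1 gene on its own strand, 5′ to 3′, with the CDX or HNF4 letters in capitals. Krt13 has 2 windows, of which the one with more such matches is shown.
Alpi (chr1:87101607-87101856, minus strand, lower in forestomach): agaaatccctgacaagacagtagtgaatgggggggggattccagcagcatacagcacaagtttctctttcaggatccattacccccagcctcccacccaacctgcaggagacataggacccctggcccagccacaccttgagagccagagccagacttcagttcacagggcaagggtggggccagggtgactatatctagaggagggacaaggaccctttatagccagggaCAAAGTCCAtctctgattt
Trim31 (chr17:36897880-36898129, plus strand, lower in forestomach): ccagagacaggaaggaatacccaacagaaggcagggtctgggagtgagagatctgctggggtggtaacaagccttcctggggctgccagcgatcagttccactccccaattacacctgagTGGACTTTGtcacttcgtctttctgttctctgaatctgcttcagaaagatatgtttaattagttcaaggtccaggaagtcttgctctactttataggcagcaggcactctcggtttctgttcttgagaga
Cdhr5 (chr7:141276787-141277036, minus strand, lower in forestomach): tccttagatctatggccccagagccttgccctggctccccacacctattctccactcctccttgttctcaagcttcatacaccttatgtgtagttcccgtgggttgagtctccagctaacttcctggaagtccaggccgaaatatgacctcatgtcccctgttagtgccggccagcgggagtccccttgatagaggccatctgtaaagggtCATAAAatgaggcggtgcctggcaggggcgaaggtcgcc
Clrn3 (chr7:135528655-135528904, minus strand, lower in forestomach): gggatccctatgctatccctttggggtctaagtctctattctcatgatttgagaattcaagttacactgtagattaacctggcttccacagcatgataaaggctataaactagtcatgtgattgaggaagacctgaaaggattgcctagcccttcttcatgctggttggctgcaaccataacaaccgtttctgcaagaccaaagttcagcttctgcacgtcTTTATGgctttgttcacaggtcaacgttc
Krt13 (chr11:100121567-100121816, minus strand, higher in forestomach): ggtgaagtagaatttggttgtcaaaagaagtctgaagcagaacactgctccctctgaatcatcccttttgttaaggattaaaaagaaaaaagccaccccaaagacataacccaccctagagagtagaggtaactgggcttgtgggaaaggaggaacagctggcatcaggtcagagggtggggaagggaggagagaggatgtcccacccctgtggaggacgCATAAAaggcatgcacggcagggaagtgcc
The HNF4 letters lie 19 bases before the start of Alpi and, on the opposite strand, 130 bases before that of Trim31. CDX letters lie 29 bases before the start of Clrn3 and, on the opposite strand and so read there as CATAAA, 39 before that of Cdhr5. A further match of Clrn3, on the opposite strand, lies after its start and so outside the bases shown. CDX letters also lie on the opposite strand 30 bases before the start of Krt13, a gene called higher in forestomach.

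Of 25 genes of goblet, Paneth, enteroendocrine and tuft cells, 4 were called lower and 0 higher, and 6 and 1 with only the 4 libraries compared in the model. Tff3, the trefoil peptide of goblet cells, had 0.513 and 0.289 against 17.1 and 14.6 CPM, and Fcgbp, a mucus protein, 2.78 and 5.42 against 28.9 and 38.9 CPM. Of 11 hormone genes tested, 3 were called lower, and 5 with only those 4 libraries. Sct, which encodes secretin, had 0.214 and 0.325 against 13.6 and 10.8 CPM and Gip, which encodes the incretin GIP, 0.171 and 0.0361 against 2.57 and 2.09 CPM. Gcg, the source of glucagon-like peptides, had 14.8 and 11.5 against 61.3 and 54.9 CPM and was higher in hindstomach, at 174 and 190.2 CPM. The call of Gcg was lost without any 1 of the 4 libraries (edgeR adjusted p from 0.0502 to 0.147).

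Of 16 gastric genes tested, 7 were called higher and 2 lower in forestomach, with a median log2 fold change of 1.54. Atp4b, a subunit of the gastric proton pump, had 9.84 and 12.1 CPM in forestomach and 0 counts in small intestine, at least 138-fold higher, and hindstomach held it at 7.87 and 8.05 CPM. Muc5ac, the mucin of surface mucous cells, had 2.95 and 1.63 against 0.0136 and 0 CPM, and Muc4, a membrane mucin, 14.5 and 13.8 against 2.72 and 2.72 CPM. Pgc, which encodes a pepsinogen, was called lower with 0.214 and 0.687 against 3.701 and 3.87 CPM, but not with only the 12 forestomach and small intestine libraries in the model (adjusted p = 0.24 by edgeR). Cym encodes chymosin, the milk-clotting protease of the young stomach. It was among the 5 called genes with the most reads on the higher side, at 1269.5 and 1254 CPM in forestomach and 16.1 and 13.7 CPM in small intestine (log2 fold change 6.4 ± 0.35 SE, adjusted p = 1.68e-10 by edgeR). Hindstomach held Cym at 1063 and 1129.8 CPM, close to forestomach.

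Of 35 Hox genes tested, which mark position along the body axis, 7 were called higher and 2 lower in forestomach, and the median log2 fold change was 0. Of the 39 genes in the list, 9 had 0 counts in all 4 libraries. With only those 4 libraries in the model 9 were called higher and 3 lower, and the median over the members then tested was 1.88. Hoxc5 had 128 and 129 CPM in forestomach and 1.05 and 0.434 CPM in small intestine (log2 fold change 7.32 ± 0.95 SE, adjusted p = 3.28e-05 by edgeR). Hoxc4 had 55.96 and 48.7 against 1.402 and 1.06 CPM and Hoxc6 21.9 and 23.9 against 0.49 and 0.473 CPM. Their neighbour Hoxc8 had 5.31 and 3.87 against 1.17 and 0.868 CPM and was not called (edgeR adjusted p = 0.0924), whereas DESeq2 called it (adjusted p = 0.00579). Hoxc4, Hoxc5 and Hoxc6 share transcripts, so reads may be split among them. Hindstomach stood at 3.81 and 4.25 CPM for Hoxc5, so the forestomach level was above both other organs.

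Of the A cluster genes called higher, Hoxa2, Hoxa3 and Hoxa5 had log2 fold changes of 3.6 (SE 1.10), 1.82 (SE 0.48) and 1.86 (SE 0.51), and forestomach held them between 9.41 and 8.097 CPM (Hoxa5) and 14.5 and 13.8 CPM (Hoxa3). Their edgeR adjusted p lay between 0.011 (Hoxa3) and 0.0276 (Hoxa2). The call of Hoxa2 was lost without any 1 of the 4 libraries (edgeR adjusted p up to 0.178). Those of Hoxa3 and Hoxa5 were lost without forestomach replicate 1 or either small intestine replicate (adjusted p up to 0.0865 and 0.101). Hoxb5 was lower in forestomach, with 0.513 and 0.361 against 2.33 and 1.89 CPM. Hoxd4 had 0 counts against 0.748 and 1.03 CPM and was not called without either forestomach library (edgeR adjusted p = 0.062 and 0.0651).

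**Figure D4:**
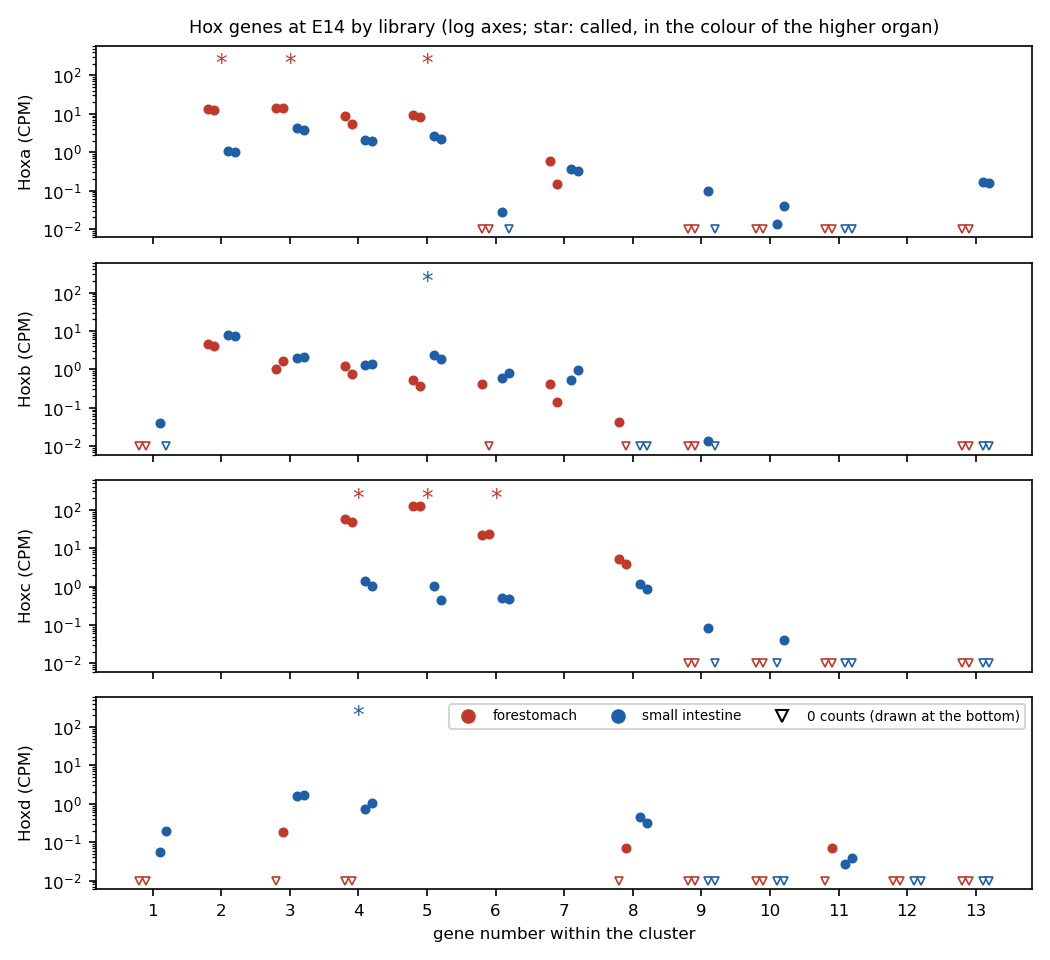
Each panel is 1 Hox cluster, with the gene number on the x axis and the level in each E14 library in CPM on a log y axis, forestomach red and small intestine blue, and open triangles at the bottom for 0 counts. Stars mark called genes in the colour of the organ with the higher level: Hoxc4, Hoxc5 and Hoxc6 stand well above small intestine in forestomach, Hoxa2, Hoxa3 and Hoxa5 less so, and Hoxb5 and Hoxd4 are higher in small intestine.

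Hedgehog ligands, which the gut lining sends to the surrounding mesenchyme, were called in 1 of the 2 cases given here. Shh had 208 and 197 CPM in forestomach and 176 and 213 CPM in small intestine and was not called (log2 fold change 0.06 ± 0.26 SE, adjusted p = 0.941 by edgeR). Ihh had 24.7 and 32.8 against 169.6 and 171 CPM (log2 fold change -2.56 ± 0.19 SE, adjusted p = 8.23e-09 by edgeR). Hindstomach held Shh at 42.8 and 51.7 CPM, below both other organs, and Ihh at 224 and 254 CPM, above both. Of the 16 pathway genes tested, 2 were called higher and 2 lower. The coreceptors differed in direction: Boc, called higher, had 8.64 and 10.9 against 1.32 and 1.85 CPM and Gas1, called lower, 3.64 and 3.14 against 24.7 and 28.8 CPM. Gli3, the factor that acts as repressor without signal, had 39.2 and 41.9 against 15.7 and 12.6 CPM. The receptor Ptch1, itself a pathway target, had 28.7 and 26.9 against 18.5 and 19.01 CPM, and the transducer Smo 141 and 174 against 116 and 131 CPM, and neither was called.

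Among 54 Wnt pathway genes tested, 15 were called higher and 6 lower in forestomach, with a median log2 fold change of 0.04. Sfrp5, a secreted Wnt antagonist, was at 0.0428 and 0.0723 CPM in forestomach and 223 and 224 CPM in small intestine. The ratio was 3797, with a counting interval from 1299 to 18413 (edgeR adjusted p = 2.52e-11). Notum, an enzyme that inactivates Wnt ligands and is induced by the pathway, ran opposite with 174 and 176 against 0.327 and 0.355 CPM (log2 fold change 9.0 ± 1.09 SE, adjusted p = 5.36e-06 by edgeR). Lef1, a nuclear effector of the pathway, had 13.1 and 13.6 against 0.177 and 0.158 CPM, and the ligand Wnt10a 7.62 and 6.94 CPM against 0 counts. The antagonist that was high in one organ was thus close to 0 in the other, for both Sfrp5 and Notum.

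In the BMP and TGF-beta list, 4 of 29 genes were called higher and 3 lower. Inhbb, a subunit of activin B, had 46.6 and 47.1 against 0.259 and 0.592 CPM. Bmp3 had 0 counts in forestomach against 0.721 and 0.828 CPM. The Id genes, targets of BMP signals that block helix-loop-helix factors, differed in direction. Id3 had 390.3 and 354 against 33.4 and 29.5 CPM (log2 fold change 3.56 ± 0.38 SE, adjusted p = 9.54e-07 by edgeR), and Id1 91.6 and 86.8 against 28.9 and 22.5 CPM. Id4 had 6.76 and 5.93 against 2.23 and 1.85 CPM. Id2 was lower in forestomach, with 243 and 237 against 631 and 546 CPM (log2 fold change -1.29 ± 0.15 SE, adjusted p = 2.7e-06 by edgeR).

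Of 30 FGF and retinoic acid genes tested, 8 were called higher and 5 lower. The higher calls included retinoic acid genes. Crabp2, the protein that carries retinoic acid to its receptors, had 70.3 and 72.6 CPM in forestomach and 0.517 and 0.907 CPM in small intestine (log2 fold change 6.72 ± 0.49 SE, adjusted p = 7.65e-09 by edgeR). The receptors Rarb and Rarg had 121 and 132 against 17.8 and 15.3 CPM and 87.1 and 102 against 10.5 and 11.7 CPM. Aldh1a1, an enzyme that makes retinoic acid, had 40.8 and 48.5 against 7.19 and 6.55 CPM, and was not called with those 12 libraries alone (adjusted p = 0.0957 by edgeR). Etv4, a target of FGF signals, was lower in forestomach with 2.82 and 2.78 against 28.9 and 26.1 CPM.

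Notch genes were called higher in 6 of 20 cases and lower in 1. The ligands Jag1 and Jag2 had 45.4 and 48.7 against 10.1 and 14.8 CPM and 74.5 and 107 against 8.16 and 9.62 CPM, whereas the ligand Dll1 had 3.85 and 5.097 against 9.703 and 13.1 CPM and was lower. Jag2 was not called without small intestine replicate 1 (edgeR adjusted p = 0.0609). Nrarp, a feedback target of Notch, had 30.9 and 33.5 against 5.61 and 5.84 CPM. Of 21 Eph receptors and ephrins, 5 were called higher and 1 lower, and the ligand Efnb2 had 185 and 190.3 against 47.4 and 54.3 CPM.

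Of 20 claudins, proteins of tight junctions, 1 was called higher and 5 lower. Cldn7 had 230.4 and 242 against 728 and 632 CPM, and Cldn2, a pore-forming claudin, 0.257 and 0.145 against 16.4 and 19.1 CPM. Of 32 cell cycle genes, 0 were called higher and 1 lower, and the median log2 fold change was -0.05. The gene called was Myc, the growth-promoting factor, with 31.1 and 32.4 CPM in forestomach and 139 and 143 CPM in small intestine (log2 fold change -2.15 ± 0.14 SE, adjusted p = 2.05e-09 by edgeR). Among 16 imprinted and fetal timing genes, 1 was called higher and 3 lower. Dlk1 and Peg3, both expressed from 1 parental copy, had 52.8 and 51.6 against 300.1 and 289 CPM and 134 and 152 against 632 and 532 CPM, beside the larger share of mesenchyme markers in small intestine, whose part was not tested. Mest, also imprinted, had 20.3 and 22.6 against 52.6 and 44.6 CPM, and Plagl1, the gene called higher, 155 and 147 against 46.3 and 42.8 CPM.

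Of 10 liver-type secreted proteins, 6 were called lower in forestomach and 0 higher, and the list took 0.00294% and 0.00287% of counts in forestomach and 0.0471% and 0.0443% in small intestine. Afp, alpha-fetoprotein, had 5.69 and 6.796 against 168 and 147 CPM, and Trf, transferrin, 2.35 and 1.52 against 115 and 114 CPM. Alb, albumin, which defines hepatocytes, had 0 counts in forestomach and 0.327 and 0.158 CPM in small intestine and was not called. Of the 10, 1 was at 0 counts in each small intestine library, and 4 and 3 in those of forestomach.

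The called genes with the most reads on the higher side were Igfbp2, Igfbp5, Cym, Krt15 and Igfbp4. The insulin-like growth factor binding proteins had 1579.7 and 1570.0 against 123 and 109 CPM for Igfbp2, 1249 and 1333 against 100.1 and 119 CPM for Igfbp5 and 753 and 796 against 345 and 298 CPM for Igfbp4. Those on the lower side were Mif, Tfrc, Oat, Id2 and Cldn7. Oat, ornithine aminotransferase, had 74.5 and 70.5 against 871 and 826 CPM (log2 fold change -3.55 ± 0.29 SE, adjusted p = 3.85e-08 by edgeR). Tfrc, the transferrin receptor, had 210.4 and 189 against 712 and 794 CPM. Mif, a cytokine, had 576 and 563 against 1348 and 1066 CPM, and without small intestine replicate 1 its log2 fold change of -0.91 was under the minimum of 1 in size.

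Among the 12 largest differences per direction, Irx5 and Irx3, neighbouring Iroquois homeobox genes, were higher in forestomach. Irx5 had 52.4 and 54.98 CPM against 0 counts, at least 675-fold higher (edgeR adjusted p = 6.04e-10), and Irx3 had 51.8 and 60.7 against 0.0544 and 0.0394 CPM. Edar, the ectodysplasin receptor of hair and tooth placodes, had 37.7 and 42.2 against 0 and 0.0394 CPM, a ratio of 3966 with a counting interval from 711 to 156738. Hes2, a hairy-related repressor, had 4.06 and 4.41 CPM against 0 counts, and was not called with those 12 libraries alone (adjusted p = 0.0604 by edgeR). On the lower side, Lgals2, a galectin, had 0 and 0.181 against 343 and 284 CPM (log2 fold change -11.58 ± 0.90 SE, adjusted p = 1.66e-08 by edgeR). Tm4sf20, a tetraspan membrane protein, Trim31, a ubiquitin ligase, and Slc30a10, a manganese exporter, had 0 counts in forestomach. Small intestine held Tm4sf20 at 64.8 and 60.8 CPM, Trim31 at 18.98 and 18.7 CPM and Slc30a10 at 18.8 and 17.9 CPM.

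The E14 differences were next read against the same organs at E12, from other libraries, which enter the same model and so share its estimate of the spread. Without E12 small intestine replicate 1 or 2 in that model, 1015 or 1016 genes were called higher at E14. At E12 1740 genes were called, 10.1% of those tested (5.37% higher and 4.72% lower). The small intestine libraries at E12 differed more from each other (Spearman's rho 0.947 between replicates across genes, against 0.987 for E14 forestomach and 0.993 for E14 small intestine), and without replicate 2 of that group 3980 genes were called at E12, without replicate 1 1528. Of the 803 genes higher at E14, 253 were also called higher at E12 (31.5%, or 27.3% of the E12 higher calls) and 22 were called lower. Of the 1256 lower at E14, 391 were also called lower at E12 (31.1%, or 48.0% of the E12 lower calls) and 56 were called higher. The E12 background shares are 5.37% and 4.72%.

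The change of the organ difference from E12 to E14 was called for 1178 genes, 6.83% of those tested (2.32% higher and 4.51% lower), and for 3463 without E12 small intestine replicate 2. For Hnf4a, E12 forestomach had 42.1 and 59.3 CPM and E12 small intestine 63.8 and 50.4 CPM, and the change was -3.8 ± 0.50 SE (adjusted p = 6.33e-05 by edgeR). Gata4 stood at 277 and 273 CPM in E12 forestomach and 195 and 145 CPM in E12 small intestine, above E14 forestomach in all 4 libraries. Ihh had 171 and 179 CPM in E12 forestomach and 136 and 139 CPM in E12 small intestine (change -2.91 ± 0.25 SE, adjusted p = 5.52e-07 by edgeR). Cdx2, by contrast, already separated the organs at E12, with 2.33 and 2.15 against 153 and 115 CPM, as did Prdm1 with 0.916 and 1.14 against 82.2 and 71.6 CPM and Osr2 with 1.34 and 0.388 against 152 and 114 CPM. On the forestomach side, Sox2 was at 185 and 160.2 CPM at E12, about its E14 level, while Trp63 was at 15.05 and 11.96 CPM, Krt15 at 20.6 and 19.95 CPM and Perp at 22.97 and 32.7 CPM. Whether the forestomach libraries of E12 and E14 cover the same part of the stomach was not tested. Of the 38 stratified squamous genes, 9 were called higher and 3 lower at E12, 28 and 0 at E14, and 27 and 2 at E16; the change from E12 to E14 was called for 7 of the 38, all higher. The background shares of higher calls are 5.37%, 4.66% and 18.6% at the 3 ages.

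At E16 6037 genes were called, 35% of those tested (18.6% higher and 16.4% lower). The E16 forestomach libraries stood apart: the 61 non-epithelial markers took 4.78% and 5.77% of their counts, against 0.248% and 0.267% in E16 small intestine, and the 18 general epithelial genes 0.172% and 0.158%, against 1.14% and 1.13%. The part of this in the E16 values was not tested. Of the genes higher at E14, 511 were also called higher at E16 (63.6%, or 15.9% of the E16 higher calls) and 41 were called lower. Of those lower at E14, 642 were also called lower at E16 (51.1%, or 22.7%) and 207 were called higher. The change of the organ difference from E14 to E16 was called for 4381 genes (25.4% of those tested, 14% higher and 11.4% lower).

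Single genes showed the later course. Fabp1 reached 1855 and 1813 CPM and Alpi 676 and 615 CPM in E16 small intestine. Cdx1 stood at 324 and 299 CPM in E16 small intestine and had 0 counts in E16 forestomach (adjusted p = 5.97e-05 by edgeR for the change of the organ difference). In E16 forestomach Krt13 reached 636 and 584 CPM, Krt4 1310.0 and 1621 CPM and Krt14 536 and 448 CPM. Shh, at 176 CPM or more in all 4 E14 libraries, was at 1.698 and 2.45 CPM in forestomach and 6.09 and 9.94 CPM in small intestine at E16. Foxa2 was at 1.85 and 0.306 CPM and 2.16 and 1.58 CPM, so that Foxa2, called higher at E14, was under 3 CPM in every E16 library of both organs. Gas1 and Dlk1, lower in forestomach at E14, were higher there at E16, with 221 and 342 against 5.64 and 7.59 CPM and 877 and 824 against 36.4 and 34.7 CPM, in the libraries with the larger share of non-epithelial markers.

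**Figure D5:**
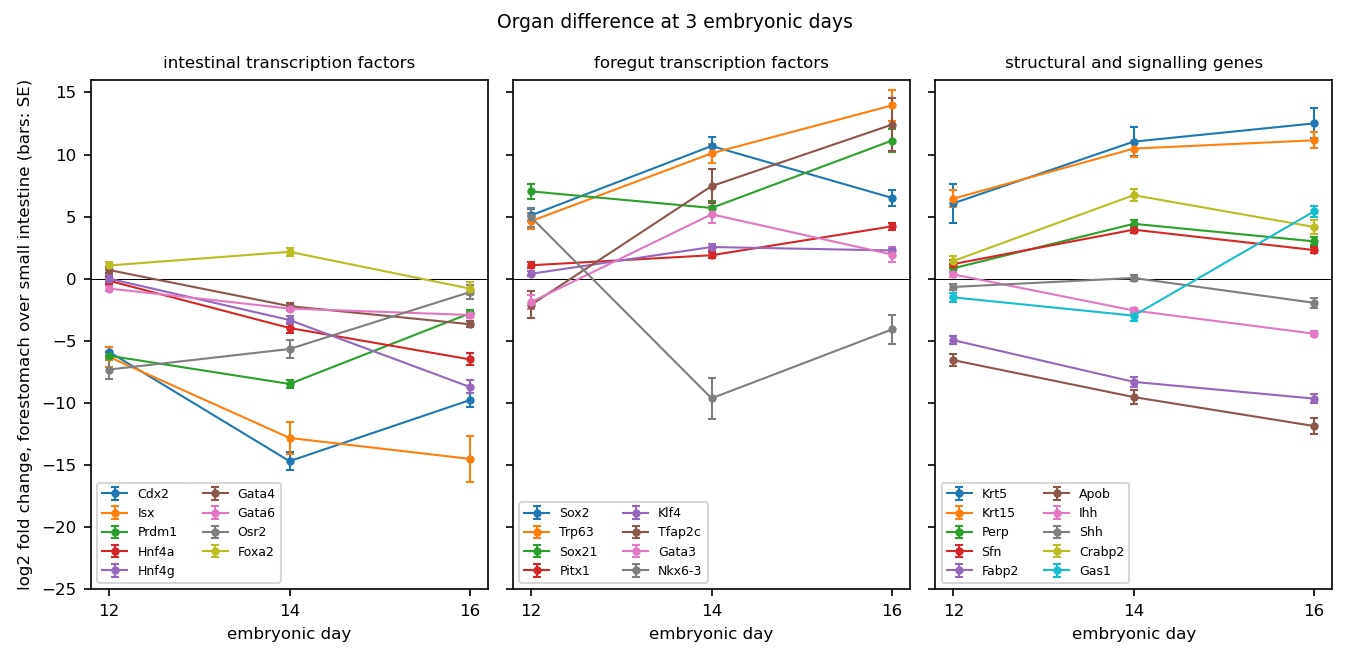
Log2 fold change of forestomach over small intestine (y axis, bars give the SE, 2 libraries per organ and age) at embryonic days 12, 14 and 16 (x axis) for named genes. Hnf4a and Hnf4g lie near 0 at E12 and below it at E14, and Gata4 passes from above 0 at E12 to below it at E14. Cdx2 and Prdm1 are below 0 at all 3 ages, Trp63 and Krt15 are above 0 at all 3 ages, and Gas1 passes from below 0 at E14 to above it at E16.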

How the data were processed

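RNA of sorted embryonic epithelium was counted per gene. The authors deposited 1 table of raw read counts per gene symbol for the RNA libraries. The submitters' processing notes name STAR 2.5.3a, HTSeq and the mm9 genome build, and the strand setting is not given in the sources used here, so genes that overlap or lie antisense to each other are uncertain. The 27 embryonic columns were used and 6 other columns of per-sample values were not; 2 rows without a gene name were left out. Of 24015 symbols, 22709 were in the gene name table and 22508 in the RefSeq table.

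One model over all 27 libraries in 13 groups was fitted with edgeR 4.0.16 in R 4.3.3 (TMM scaling, filterByExpr with a minimum count of 10, quasi-likelihood test, Benjamini-Hochberg adjustment over 17239 genes). Genes were called at an adjusted p under 0.05 and a log2 fold change of at least 1 in size. Tested on simulated data for the E14 comparison (16538 genes), the fit recovered 0 of 50 genes changed 1.5-fold, 15 of 50 changed 2-fold, 33 of 50 changed 4-fold and 46 of 50 changed 8-fold, with 3 false calls. The simulation gave all groups the same mean, apart from the changed genes in E14 forestomach, and the same spread for each gene. Genes with few counts were not among those changed. These rates therefore need not hold for the real libraries. Folds against a group at 0 counts use a floor of 3 counts per library. A ratio against 1 to 3 counts has an exact 95% counting interval, which covers counting error only.

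Alternatives were RLE scaling, DESeq2 1.42.0, other filters, fewer libraries in the model, a replicate block, each E14 library left out, counts thinned to 5970227 per library and other fold minimums. Leaving out each E12 small intestine library was chosen after seeing the data. The comparison, the gene lists and the rule for named genes were chosen with earlier results of these data known. Named genes are the 12 largest calls per direction with an average log2 CPM of at least 2, up to 6 called and 3 uncalled members of each list (any member of the transcription factor, Hox, hedgehog and squamous lists), the 5 called genes with the most reads per direction, the 4 per direction with the largest changes from E12 to E14, and the 4 per direction with the largest differences at both ages among genes called in opposite directions at E14 and E16. No list was given a test. Some members of the lists, which count in the totals, and a motif searched are not reported here by name. The chromatin samples of the series were not used here.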

Additional observations from a re-analysis of the deposited data

Results flagged for a closer look

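Results were picked out here where the organ difference itself differed between ages by the edgeR test of the change, over the genes with the largest E14 differences, both transcription factor lists and the genes with the largest changes. Values are log2 changes of forestomach over small intestine. From E12 to E14 the change was called for 1178 genes and from E14 to E16 for 4381. Where a gene had 0 counts in 1 or more of the groups, the size of its change comes from the fit and is not a bound. Each change contains the E14 difference by which many of these genes were picked, so its sign is a description.

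Of 20 intestinal transcription factors, 12 were called lower in the change from E12 to E14 and 0 higher, against 4.51% and 2.32% of all genes. The change was -3.8 for Hnf4a, -3.33 for Hnf4g, -2.91 for Gata4, -2.06 for Gata5, -1.61 for Gata6, -1.62 for Foxa3 and -2.27 for Prdm1. For Cdx2 it was -8.79 and for Isx -6.52, genes at or near 0 counts in E14 forestomach, whose size therefore depends on the fit. Nr1i2 (-8.89) and Creb3l3 (-9.87) had 0 counts in both E12 small intestine libraries. The changes of Isx and Creb3l3 were not called without any 1 of the 4 E14 libraries or without E12 small intestine replicate 1.

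Of 20 foregut factors, 5 were called higher and 3 lower in this change. The change was 5.58 for Sox2, 5.46 for Trp63, 9.55 for Tfap2c, 7.06 for Gata3 and 2.15 for Klf4. In forestomach Sox2 was at about the same level at both ages, so its change lies on the small intestine side, while Trp63 rose in forestomach. At E12 small intestine had more Gata3 (4.87 and 1.69 CPM) than forestomach (1.06 and 0.725 CPM), and the organs were in the other order at E14. Klf5 changed by -1.17, from a call higher in forestomach at E12 to no call at E14. Nkx6-3 (-14.57) and Nkx2-1 (-7.89) were present in E12 forestomach at 40.7 and 47.9 and 11.98 and 11.9 CPM, and were at 0 counts and at 0.0428 and 0.0361 CPM in E14 forestomach. The 11 pancreas markers took 0.0169% and 0.0150% of counts in E12 forestomach and 0.00061% and 0.00054% in E12 hindstomach. At E14 they took 0.0158% and 0.0149% in forestomach and 0.0998% and 0.104% in hindstomach. Whether the stomach libraries of both ages cover the same regions was not tested. The change of Nkx2-1 was not called without E14 small intestine replicate 1, and that of Trp63 without E12 small intestine replicate 2.

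Among the largest E14 differences, Krt15 changed by 4.04 from E12 to E14, Sfrp5 by -8.92, Lgals2 by -5.36, Clrn3 by -7.06, Tm4sf20 by -13.84 and Eps8l3 by -16.08. Changes of Krt15 and Clrn3 were not called without any 1 of the 4 E14 libraries, that of Krt15 also without E12 small intestine replicate 2, and that of Lgals2 without E14 forestomach replicate 1. Tm4sf20 and Eps8l3 were under 1 CPM in all 4 libraries of these organs at E12. Among E14 calls with an average log2 CPM of at least 2, the largest changes from E12 to E14 on the higher side were those of Cav1 (11.38), Sh3rf2 (10.62), Cyp2f2 (10.45) and S1pr1 (10.44). Of these, Sh3rf2 and Cyp2f2 were not called without E12 small intestine replicate 2. Their E14 levels in forestomach were 12.7 and 7.41 CPM for Cav1, 11.1 and 8.93 CPM for Sh3rf2, 1.498 and 1.301 CPM for Cyp2f2 and 10.8 and 11.1 CPM for S1pr1. The E14 call of S1pr1 was lost without any 1 of the 4 libraries (edgeR adjusted p up to 0.205), that of Cav1 without forestomach replicate 1 or either small intestine replicate (up to 0.206) and that of Cyp2f2 without small intestine replicate 1 (0.0605). On the lower side were Eps8l3, given above, Myrfl (-15.32), Ms4a8a (-14.66) and Ccl20 (-14.61). Myrfl, Ms4a8a and Ccl20 each had 0 counts in E12 small intestine and in E14 forestomach. Ms4a8a was highest in hindstomach, at 18.9 and 17.1 CPM.

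Among the genes called in opposite directions at E14 and E16, those with the largest differences at both ages included Fgf1 (-6.23), Gm8909 (-12.71), Pex5l (-6.72) and Pcdh8 (-7.1), higher in forestomach at E14 and lower at E16. Fgf1, a growth factor, had 7.79 and 10.3 against 0.912 and 0.986 CPM at E14 and 2.47 and 3.06 against 22.7 and 21.1 CPM at E16. Its E14 call was lost without small intestine replicate 1 (edgeR adjusted p = 0.0583) and that of Pex5l without forestomach replicate 1 or small intestine replicate 2 (0.103 and 0.147). Gm17746 (14.67), Cpxm2 (15.01), Trabd2b (10.06) and Mir143hg (10.66) ran the other way. These 4 stood at under 5 CPM at E14, and each lost its E14 call without at least 1 library (edgeR adjusted p up to 0.0754 for Gm17746, 0.176 for Cpxm2, 0.0574 for Trabd2b and 0.143 for Mir143hg). Cpxm2 and Mir143hg reached 22.8 and 36.7 and 23.8 and 24.8 CPM in the E16 forestomach libraries, which have the large share of non-epithelial markers; the part of that share was not tested.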

How the results depend on the processing

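Of 154 named genes, 141 were called, and none of these 141 changed sign under any of the 15 alternatives; 120 of the 154 kept both direction and call under every alternative that tested them and 129 did so without each single E14 library. With only the 4 libraries compared or only the 6 E14 libraries in the model, which also changes the genes tested, 1232 and 1285 genes were called higher, and the 4 libraries alone also gave calls for 7 secretory, 5 hormone, 14 Fox, 16 mesenchyme, 6 neural, 2 mesothelial and 5 pancreas genes. With only the 12 forestomach and small intestine libraries, 1065 genes were called at E12 and 650 changed from E12 to E14, and E14 calls lost included Nr1i2, Pgc, Aldh1a1, Hes2, Ptprc, Csf1r, Fgf1 and Sh3rf2. No fold minimum gave 3142 E14 calls (2001 lower), and a log2 minimum of 2 gave 1267 (486 higher, 781 lower). DESeq2 called 937 higher and 1381 lower. Without 1 E14 library the E14 calls ranged from 1397 to 1671 (489 to 633 higher, 845 to 1112 lower), calls at E12 from 1565 to 1668 and at E16 from 5856 to 5979, changes from E12 to E14 from 788 to 974 and from E14 to E16 from 3509 to 3912, and calls shared in direction from 486 to 537 with E12 and from 884 to 972 with E16. Without E12 small intestine replicate 1 or 2, chosen after seeing the data, E12 calls were 1528 and 3980, changes to E14 1260 and 3463, and higher E14 calls 1015 and 1016. Genes not called at E14 crossed 0 without single libraries: Klf5 lay between -0.054 and 0.128, Lor between -0.26 and 0.298 and Shh between -0.077 and 0.195; Nkx2-1, at -2.31 in the full counts, stood at 2.07 after thinning. Deviations of libraries with the same replicate number were hardly correlated (0.0328 between forestomach and small intestine, 0.0439 between forestomach and hindstomach and 0.0973 between hindstomach and small intestine). With 2 libraries per group this cannot tell whether same-numbered libraries share embryos or a batch. A replicate block gave 796 genes called higher and 1246 lower. The calls of Hoxa2, S1pr1 and Col3a1 were then lost (edgeR adjusted p = 0.0501, 0.0662 and 0.0687). DESeq2 did not call Hoxd4 (adjusted p = 0.127), Csf1r (0.0679), Cav1 (0.102) or Gm17746 (0.0538), and thinning lost Ms4a8a, Pex5l and Mir143hg. The cause of these shifts was not tested.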

Other observations

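A group of transcription factors outside the lists also separated the organs at E14; they were chosen after their values were seen. Onecut2, a cut homeobox factor, had 0.171 and 0.0361 CPM in forestomach and 144 and 103 CPM in small intestine (log2 fold change -10.22 ± 0.42 SE, adjusted p = 4.01e-12 by edgeR). The T-box factor Tbx3 had 1.498 and 0.759 against 52.4 and 60.5 CPM. On the forestomach side, Dlx3, a distal-less factor of skin and placenta, had 36.2 and 37.96 against 0.068 and 0.0394 CPM, and Tbx1, a T-box factor of the pharynx, 15.1 and 11.8 against 0.0272 and 0.0394 CPM. At E12 Onecut2 was already at 106 and 119.6 CPM in small intestine, where forestomach had 21.8 and 14.5 CPM, and Dlx3 was at 0.846 and 0 CPM in forestomach.

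Of the 803 genes higher in E14 forestomach, the E14 hindstomach level lay nearer to forestomach for 318 and nearer to small intestine for 485, on the log2(CPM + 0.1) scale. Of the 1256 lower genes, it lay nearer to forestomach for 569 and nearer to small intestine for 687. Hindstomach was above both organs for 80 of the higher and 230 of the lower genes, and below both for 111 and 120. These counts are descriptions with no test.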
